A study of Saccharomyces cerevisiae with 4 samples.

Results

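The genes described here take sulfate into the yeast cell, reduce it, build methionine and cysteine from it, turn methionine into S-adenosylmethionine (SAM), and control these steps. They are 35 genes named by open reading frame (ORF), of 5441 ORFs listed for the series. Of these, 34 are in the tables, SAM4 was not analysed here, and MET17 had 0 counts in every library. The other 33 passed the filter of at least 200 counts summed over the 4 libraries, which 4997 of 5441 ORFs passed. Ribosome footprints, the stretches of mRNA that translating ribosomes shield from nuclease, were sequenced from Saccharomyces cerevisiae strain Y7092 in 4 groups of 1 library each. Cells were either VPS35 wild type or vps35::natMX, a deletion of the core subunit of retromer, which recycles membrane proteins from endosomes. Each strain carried either pAG416GAL-ccdB, the control plasmid, or pAG416GAL-TIF4631, which places the translation initiation factor eIF4G1 under a galactose-inducible promoter. Induction lasted 2 h in all groups, in synthetic defined medium. Y7092 is a haploid laboratory strain built for systematic crosses, and all 4 groups share its lack of MET17.

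In yeast, sulfate enters through permeases, is activated with ATP, and is reduced first to sulfite and then to sulfide. Sulfide is joined to a homoserine derivative to give homocysteine, which receives a methyl group to become methionine, and methionine is converted to SAM, the main methyl donor of the cell. Methyl transfer from SAM gives back homocysteine through S-adenosylhomocysteine, and transsulfuration links homocysteine and cysteine in both directions. The activator Met4, which has no DNA-binding ability of its own, reaches these genes through Cbf1 and through Met31 or Met32, with Met28 as a cofactor, and the ubiquitin ligase subunit Met30 restrains it when sulfur amino acids are plentiful. MET17, also called MET15, encodes the enzyme that fixes sulfide into homocysteine, so that a strain without it is grown with methionine.

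The letters that Cbf1 and Met31/Met32 are known to bind mark many of these promoters. The Cbf1 core CACGTG, which reads the same on both strands, and the Met31/Met32 core CTGTGG, searched on both strands and read as CCACAG on the other one, cannot overlap each other. In the 500 bases before the start codon, a window chosen after seeing the data and not trimmed at neighbouring genes, 22 of 35 genes held CACGTG, against 6.23% of 6000 protein-coding genes, and 21 of 35 held CTGTGG, against 13.2%. Both cores were present in 11 of 35 genes, against 0.917% of all genes, and at least 1 of them in 32 of 35, against 18.5%. MET7, SAM4 and MET31 held neither in this window. The window planned first was shorter, from 250 bases before to 50 after the start. In it, 10 of 35 held CACGTG and 9 held CTGTGG, against 2.92% and 6.85% of 6001 genes. Both cores were present there in 3 of 35, against 0.283%, and at least 1 of them in 16 of 35, against 9.48%. A match describes the letters and is not a binding site. The stretches shown next come from the R64 genome, the assembly also named sacCer3, and are shown for the 10 genes that were lower by fold in the deletion under the TIF4631 label, for the sulfite reductase subunits MET5 and MET10, and for the region shared by MMP1 and MHT1. Each is written 5′ to 3′ on the strand of the gene, with every match in capitals and up to 15 bases on either side.
SUL2: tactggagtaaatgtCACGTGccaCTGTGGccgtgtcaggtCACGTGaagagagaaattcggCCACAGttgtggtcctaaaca
MET16: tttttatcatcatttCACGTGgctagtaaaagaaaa
MET5: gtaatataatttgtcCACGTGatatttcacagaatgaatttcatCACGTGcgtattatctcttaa
MET10: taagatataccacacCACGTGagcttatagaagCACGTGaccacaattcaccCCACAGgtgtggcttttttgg
MET1: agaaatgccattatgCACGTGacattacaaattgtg
MET2: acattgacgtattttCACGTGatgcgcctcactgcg
MET6: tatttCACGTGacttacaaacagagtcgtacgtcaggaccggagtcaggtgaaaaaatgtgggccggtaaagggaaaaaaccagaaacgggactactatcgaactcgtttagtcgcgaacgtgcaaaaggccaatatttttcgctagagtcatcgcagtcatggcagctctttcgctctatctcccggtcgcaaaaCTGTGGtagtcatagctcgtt
MET13: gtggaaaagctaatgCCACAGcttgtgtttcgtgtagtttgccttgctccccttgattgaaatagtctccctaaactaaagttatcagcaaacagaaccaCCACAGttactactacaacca
STR3: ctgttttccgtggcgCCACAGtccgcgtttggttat
SAM2: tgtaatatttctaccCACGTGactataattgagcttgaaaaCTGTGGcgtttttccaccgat
MMP1: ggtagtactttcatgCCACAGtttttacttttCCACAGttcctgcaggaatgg
SAM3: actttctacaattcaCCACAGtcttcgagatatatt
MET28: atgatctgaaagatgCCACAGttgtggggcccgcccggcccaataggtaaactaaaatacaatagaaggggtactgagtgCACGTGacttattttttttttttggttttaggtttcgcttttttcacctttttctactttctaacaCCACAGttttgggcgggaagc
The SUL2 stretch (chrXII:323195-323277, plus strand) lies at positions -349 to -267 from the start codon and holds 2 matches to each core within 83 bases. SAM2 (chrIV:1454741-1454802, minus strand) holds 1 of each within 62 bases. The sulfite reductase genes MET5 (chrX:683569-683633, minus strand) and MET10 (chrVI:213048-213120, plus strand) hold 2 Cbf1 cores each, and MET10 adds 1 Met31/Met32 core. MET16 (chrXVI:877790-877825, minus strand) and MET2 (chrXIV:116981-117016, plus strand) hold 1 Cbf1 core each, as does MET1 (chrXI:571329-571364, plus strand), and MET13 (chrVII:272390-272510, plus strand) holds 2 Met31/Met32 cores. MET28 (chrIX:384252-384418, minus strand), itself a regulator, holds 1 Cbf1 core between 2 Met31/Met32 cores. STR3 (chrVII:156407-156442, minus strand) and SAM3 (chrXVI:22473-22508, plus strand) hold 1 Met31/Met32 core each, and MET6 (chrV:342451-342667, minus strand) holds 1 of each core, far apart within 217 bases. The MMP1 stretch (chrXII:17769-17821, plus strand) lies in the 342 bases between MMP1 and MHT1, which are transcribed away from each other on chromosome XII, so the same 2 matches are counted for both genes.

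**Figure D1:**
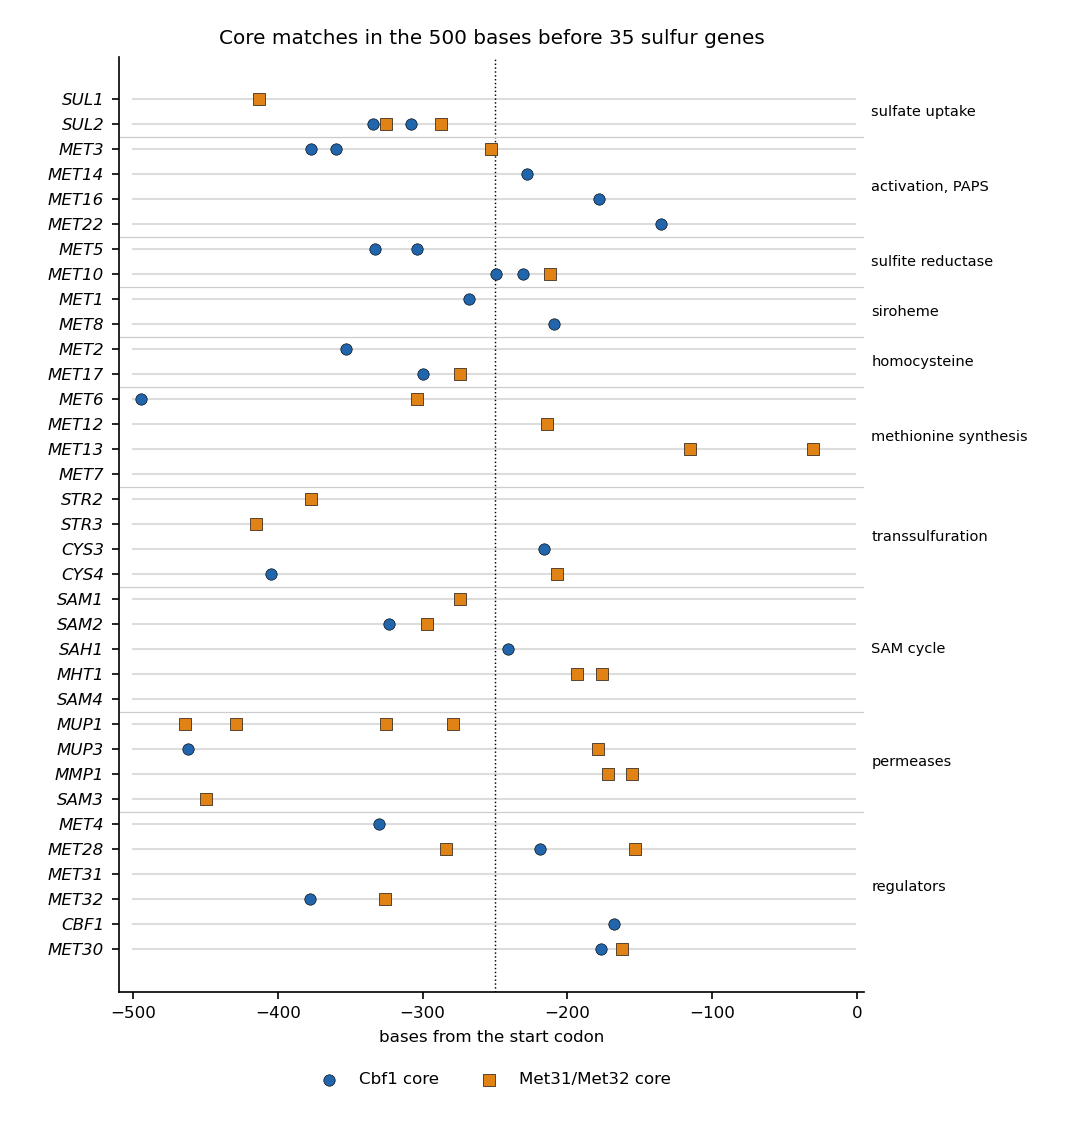
Positions of the Cbf1 core (circles) and the Met31/Met32 core (squares) in the 500 bases before the start codon of the 35 genes, by pathway step. The horizontal axis is the distance of the first base of each match from the start codon in bases, and the dotted line marks 250 bases. MET7, SAM4 and MET31 have no match.

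The label checks set how the 4 libraries can be read. Summed counts were 17669055 for the wild-type control library, 18067205 for the library labelled wild-type TIF4631, 11240681 for the deletion control library and 16341045 for the deletion library with TIF4631. Values are given in that order throughout. VPS35 held 124.2, 112.6, 0.791 and 0.60 scaled CPM, which are counts per library size (CPM) after scaling by the TMM method of edgeR. TIF4631 held 454.8, 403.1, 435.1 and 6218 scaled CPM, so the factor was raised only in the deletion library with TIF4631, and the library labelled wild-type TIF4631 goes against its label. URA3, the selection marker of the pAG416 plasmids, held 855.2, 884.6, 731.9 and 117.9 scaled CPM and was likewise apart in the deletion library with TIF4631. Its part in the results was not tested. With 1 library per group, log2 ratios carry 95% counting intervals and no test, and these intervals do not cover variation from culture to culture. A gene was called lower or higher by fold when the ratio reached a factor of 2 and its interval excluded 0. Footprint counts combine mRNA level and translation, so fewer mRNA molecules and fewer ribosomes per mRNA cannot be told apart.

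The sulfur genes took a smaller share of all footprints in the deletion library with TIF4631 than in the other libraries. The 34 listed genes held 1.72%, 2.08%, 1.66% and 1.10% of all counts. Of the 33 genes kept, 29 had their lowest scaled CPM in the deletion library with TIF4631, where 36.9% of 4997 ORFs had theirs, and 0 of 33 had their highest there, against 37.7%. None was lowest in the wild-type control, against 19.7%. The 4 exceptions were MET7 and CYS3, lowest in the library labelled wild-type TIF4631 (26.5% of all ORFs), and STR2 and MET31, lowest in the deletion control library (16.9%). The highest value was in the wild-type control for 11 genes, against 17.8% of all ORFs, in the library labelled wild-type TIF4631 for 17, against 25.6%, and in the deletion control for 5, against 19%. Of the 17, 16 were also lowest in the deletion library with TIF4631, an order that 15.3% of all ORFs had. Both deletion libraries lay below both wild-type libraries for 20 of 33 genes, against 18.5% of all ORFs, and above both for MET7 alone, against 18.1%. Without the library labelled wild-type TIF4631, 30 of 33 genes were lowest in the deletion library with TIF4631, against 41.3% of all ORFs, and 24 of 33 were below the wild-type control in both deletion libraries, against 29.5%. Levels per length spanned a wide range: mean deposited RPKM ran from 3.47 for SUL1 to 3120 for SAH1.

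**Figure D2:**
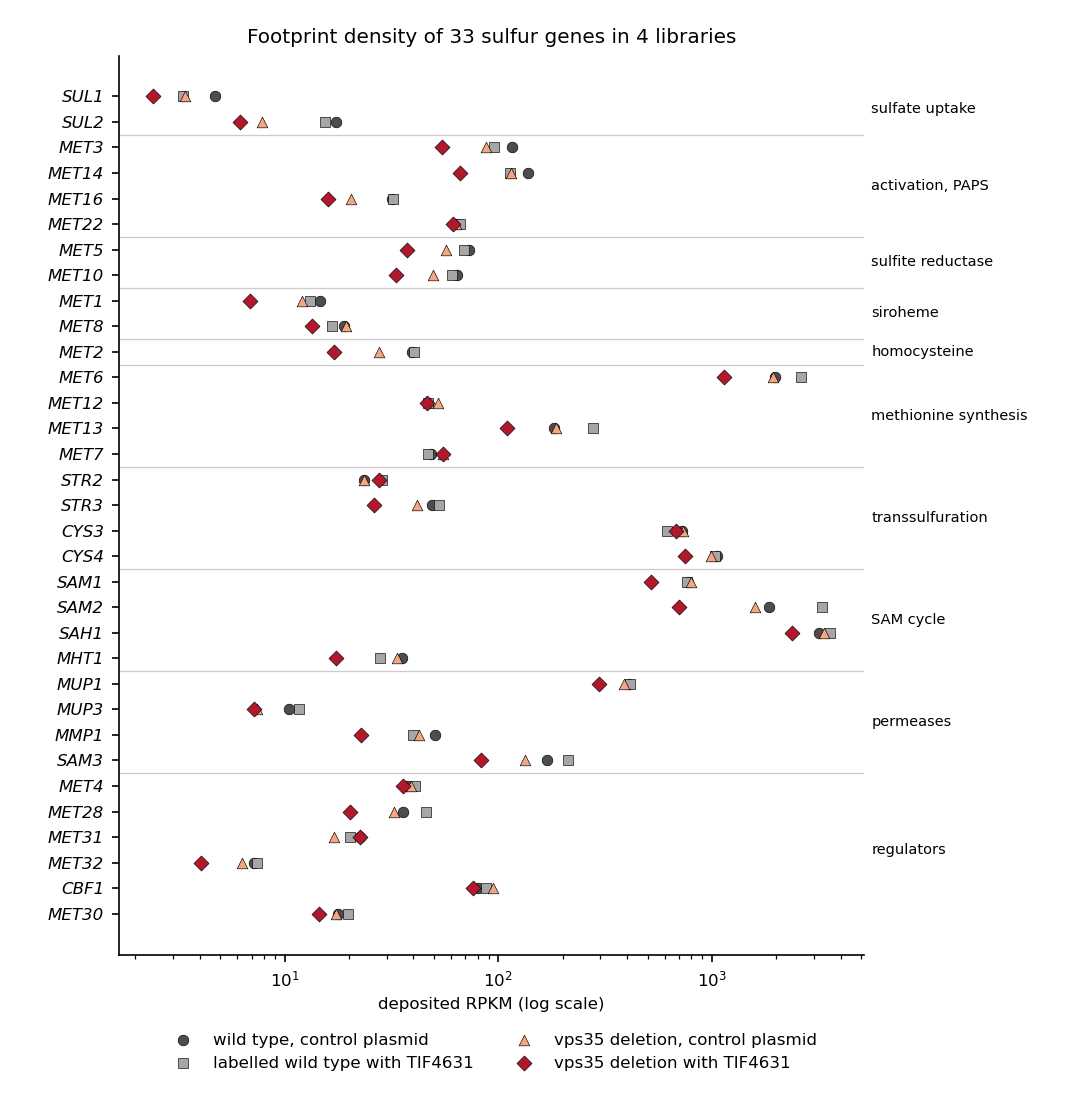
Deposited RPKM (reads per gene length and library size, log scale) of the 33 genes kept, by pathway step, with 1 point for each of the 4 libraries. The deletion library with TIF4631 (red diamonds) is lowest for 29 of the 33 genes in scaled CPM. MET7, CYS3, STR2 and MET31 are the exceptions.

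The contrast of deletion and wild type under the control plasmid is the only strain contrast without raised TIF4631, with 1 library on each side. The 33 genes had a median log2 ratio of -0.17, against 0.00 over all 4997 ORFs, and 18 of 33 were below 0 beyond counting error, against 17.3% of all ORFs, and 4 above, against 17.2%. By fold, 1 of 33 was lower, SUL2, against 0.54% of all ORFs, and 0 were higher, against 0.26%. Under the TIF4631 label the deletion library, with raised TIF4631, was set against a library without it, so strain and factor cannot be told apart. There the median was -0.78, 28 of 33 genes were below 0 beyond counting error, against 35.3% of all ORFs, 2 were above, against 33.8%, and 10 of 33 were lower by fold, against 2.4%. None was higher by fold, against 1.58%. MET1, at -1.02 (-1.27 to -0.78), did not reach the threshold with total count scaling, at -0.95. The 10 were SUL2, MET16, MET1, MET2, MET6, MET13, STR3, SAM2, SAM3 and MET28, one or more in every step but the sulfite reductase, where MET5 stood at -0.97 (-1.04 to -0.90) and MET10 at -0.95 (-1.04 to -0.87). The library labelled wild-type TIF4631 was itself above the wild-type control beyond counting error for 12 of 33 genes and below for 6. SAM2 stood highest, at 0.87, with MET13 at 0.64 and MET6 at 0.44, so their ratios under the label hold that difference too. MET6, MET13, STR3 and MET28 were less than 2-fold lower in the deletion library with TIF4631 than in the wild-type control. For MET6 these were 2561 and 4523 scaled CPM, and for STR3 35.6 and 67.9. MET3, MET14, MHT1 and MMP1, not among the 10, were more than 2-fold lower, MMP1 at 38.5 and 87.8. The genes called thus depend on the library compared. The full count was not repeated against the wild-type control.

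**Figure D3:**
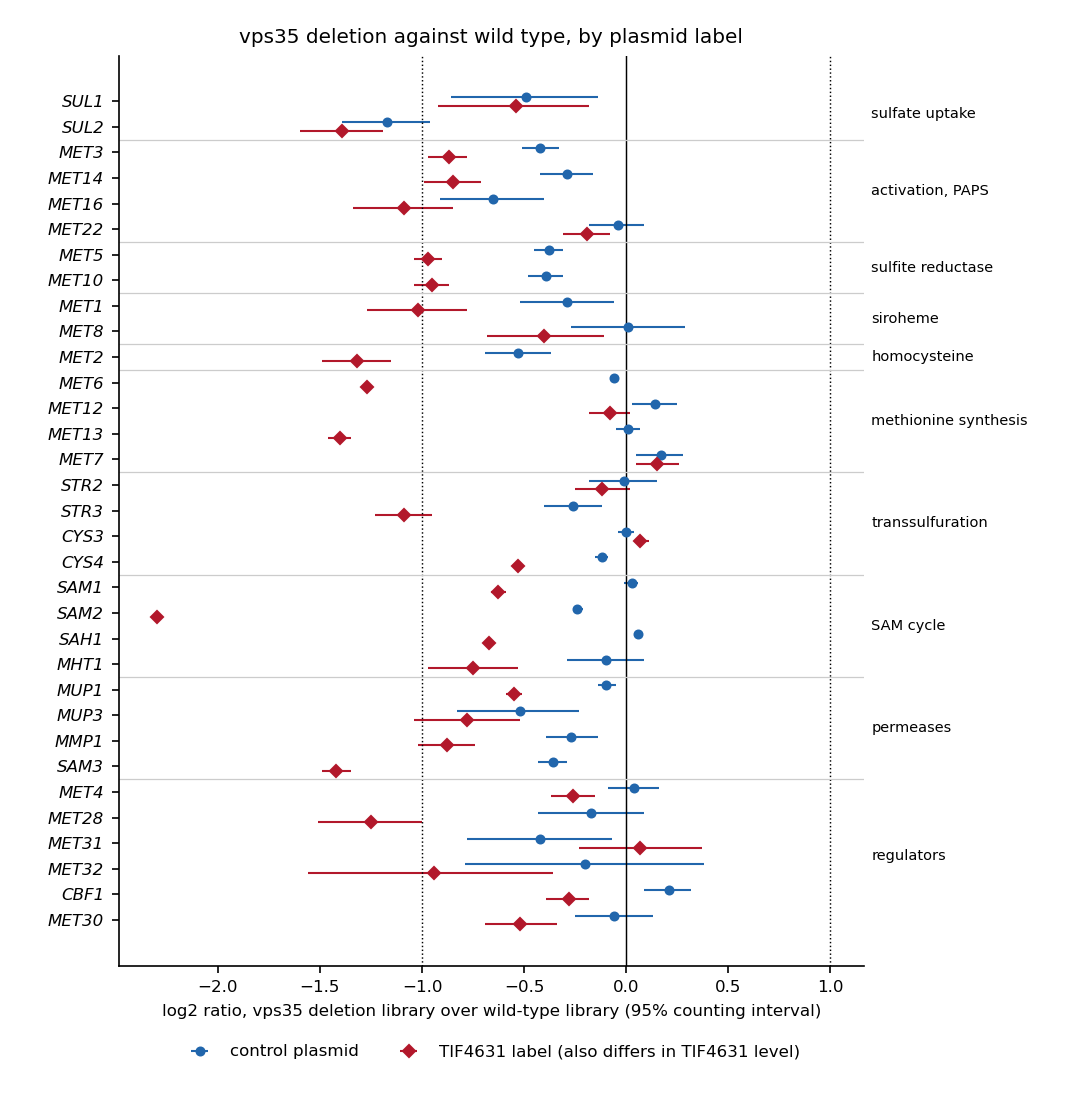
Log2 ratio of the deletion library over the wild-type library for each of the 33 genes, under the control plasmid (circles) and under the TIF4631 label (diamonds). Bars are 95% counting intervals and dotted lines mark log2 ratios of -1 and 1. SUL2 lies beyond -1 in both, and 9 other genes do so under the TIF4631 label alone.

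The contrasts by plasmid label compare libraries within a strain. In wild type, where TIF4631 was not raised, the median of the 33 genes was 0.05, with 12 above 0 beyond counting error, against 24% of all ORFs, and 6 below, against 23.6%. By fold, 0 were lower, against 0.1% of all ORFs, and 0 higher, against 0.46%. In the deletion strain, where it was raised, the median was -0.54, with 27 of 33 genes below 0 beyond counting error, against 31.3% of all ORFs, and 2 above, against 30.1%. By fold, SAM2 alone was lower there, against 0.56% of all ORFs, and 0 were higher, against 1.06%. The difference between these 2 ratios, deletion minus wild type, had a median of -0.49 over the 33 genes. It was below 0 beyond counting error for 24 of 33, against 31.5% of all ORFs, and above for 2, against 27.6%. SAM2, MET13, MET6, MET28 and SAM3 were lower by fold, 5 of 33, against 1.78% of all ORFs. None was higher, against 1.58%. The strain contrasts and the label contrasts use the same 4 libraries, so they are not independent of each other.

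**Figure D4:**
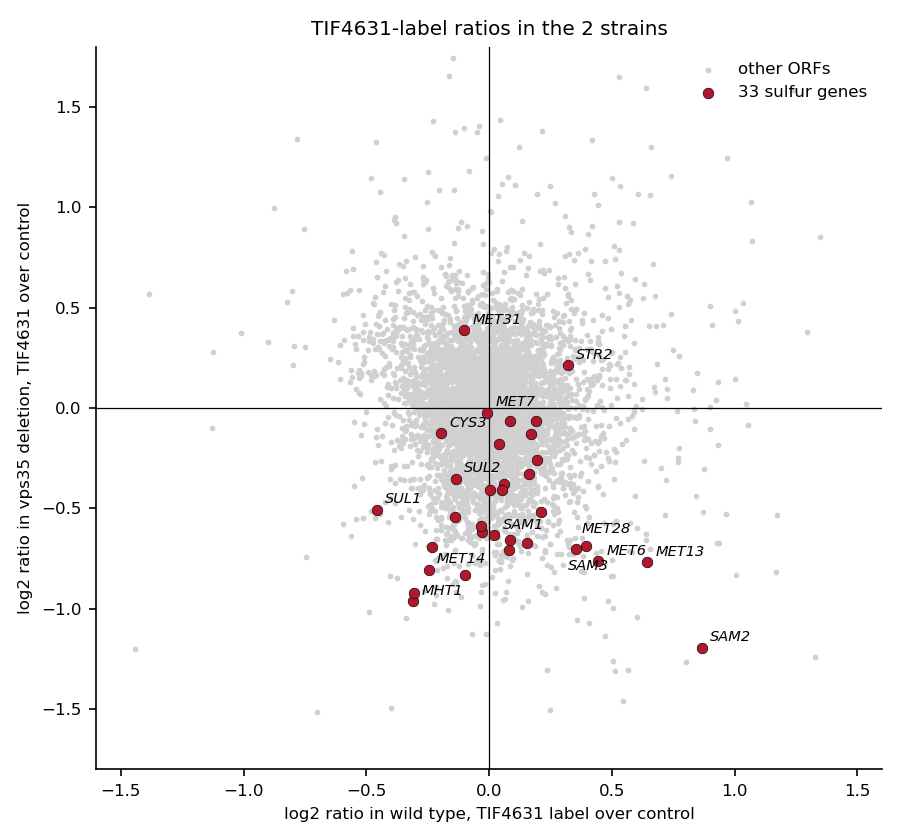
Log2 ratio of the TIF4631 label over the control plasmid in wild type (horizontal) and in the deletion strain (vertical) for the 33 sulfur genes (red) and the other ORFs (grey), with 1 library per group. The axes leave out the most extreme ORFs, none of them a sulfur gene. Most sulfur genes lie below 0 on the vertical axis, and SAM2 lies farthest from 0 among them on both, at 0.87 and -1.19.

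The only test over samples was an additive model of strain and plasmid label fitted to all 4 libraries with edgeR's quasi-likelihood test. It has 1 residual degree of freedom, so any difference between the label ratios in wild type and in the deletion strain counts as residual spread. A change that goes with raised TIF4631, found only in the deletion library with TIF4631, also enters that spread. The strain ratios of SAM2, for example, were -0.24 under the control plasmid and -2.3 under the TIF4631 label. The strain effect draws on the pair of libraries that also differs in TIF4631. One gene of the 33, SUL2, fell with strain, by -1.28 on the log2 scale (SE 0.177, adjusted p = 0.0141 in edgeR), where 0.42% of all ORFs fell. None rose, against 0.2% of all ORFs. At an unadjusted p under 0.05, 15 of 33 genes were lower with strain, against 4.22% of all ORFs, and 0 were higher, against 2.74%. By p-value, MET2 at -0.92 (SE 0.203, edgeR adjusted p = 0.134) and MET16 at -0.87 (SE 0.205, edgeR adjusted p = 0.147) came next, and by size SAM2 did, at -1.27 (SE 0.437, edgeR adjusted p = 0.472). No ORF passed for the plasmid label by edgeR, although 1.02% of all ORFs were lower and 2.34% higher at an unadjusted p under 0.05. Among the sulfur genes 4 of 33 were lower there, MET3, MET14, MHT1 and MMP1, and 0 were higher. DESeq2 called 6 ORFs for the label, none of them a sulfur gene.

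At the plasma membrane, sulfate enters through the high-affinity permeases Sul1 and Sul2. SUL2 (YLR092W, chromosome XII, 323544 to 326225) held 46.7, 42.4, 20.7 and 16.2 scaled CPM. Both deletion libraries were below both wild-type libraries, with log2 ratios of -1.17 (-1.39 to -0.96) under the control plasmid and -1.39 (-1.6 to -1.19) under the TIF4631 label. The label made less difference to it, -0.14 (-0.28 to 0.01) in wild type and -0.35 (-0.61 to -0.09) in the deletion strain. SUL1 (YBR294W) had few counts, 214, 155, 98 and 101, or 12.2, 8.84, 8.62 and 6.06 scaled CPM. Its strain ratios of -0.49 (-0.86 to -0.14) and -0.54 (-0.92 to -0.18) were smaller in size than those of SUL2. Per length, SUL2 made up 78.7% (76.0 to 81.2, Clopper-Pearson) and 82.2% (79.5 to 84.7) of the pair in the wild-type libraries, and 69.8% (64.5 to 74.7) and 72.0% (67.1 to 76.5) in the deletion libraries. The deletion control lay apart from both wild-type libraries, while the interval of the deletion library with TIF4631 met that of the wild-type control.

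Inside the cell, ATP sulfurylase (MET3) and APS kinase (MET14) activate sulfate, PAPS reductase (MET16) makes sulfite, and the phosphatase Met22 removes the PAP left behind. MET14, the highest of the 4 per length, held 82.3, 69.4, 67.2 and 38.4 scaled CPM. MET16 (YPR167C, chromosome XVI, 876847 to 877632) held 24.6, 25.7, 15.7 and 12.1 scaled CPM, so that its strains did not overlap, with strain ratios of -0.65 (-0.91 to -0.40) and -1.09 (-1.34 to -0.85). MET3 stood at 176, 149.7, 132 and 81.7 scaled CPM. MET3 and MET14 differed from MET16 in the label contrast in wild type, where they lay at -0.23 (-0.31 to -0.16) and -0.25 (-0.36 to -0.14) and MET16 at 0.06 (-0.13 to 0.25). MET22, which acts on the by-product and is also the target of lithium and sodium toxicity, stayed between 63.4 and 72.6 scaled CPM, the narrowest spread of the step.

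Sulfite reductase is built from an alpha subunit (MET10) and a beta subunit (MET5), which are encoded on different chromosomes. MET5 (YJR137C, chromosome X, 678957 to 683285) held 315.1, 308.7, 242 and 157.8 scaled CPM, and MET10 (YFR030W, chromosome VI, 213312 to 216419) held 198.4, 193.7, 150.9 and 100.2. Both were in the same order, with the deletion libraries below the wild-type libraries. Per length, the ratio of MET5 to MET10 footprints was 1.14, 1.14, 1.15 and 1.13. MET5 thus made up 53.2% (52.2 to 54.3), 53.3% (52.3 to 54.4), 53.5% (52.0 to 55.0) and 53.0% (51.5 to 54.6) of the pair, and these intervals all overlapped. Siroheme, the prosthetic group of the enzyme, is made from uroporphyrinogen by Met1 and Met8. MET8 held 15.4, 14, 15.5 and 10.6 scaled CPM, and MET1 25.8, 24.1, 21.2 and 11.9. The label ratio in the deletion strain was -0.83 (-1.11 to -0.56) for MET1 and -0.54 (-0.85 to -0.24) for MET8.

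Homocysteine synthesis needs an acetylated homoserine, made by Met2, and sulfide. MET2 (YNL277W, chromosome XIV, 117349 to 118809) held 57.0, 60.2, 39.5 and 24.2 scaled CPM. Its strain ratios were -0.53 (-0.69 to -0.37) and -1.32 (-1.49 to -1.15), and the 2 strains did not overlap. MET17, the O-acetylhomoserine sulfhydrylase, had 0 counts in each library. The floor for 0 was set at 3 counts, or 0.264 scaled CPM in the shallowest library. The gene is deleted in this strain. In contrast to MET2, the genes that make homoserine from aspartate, HOM3, HOM2 and HOM6, lay between -0.20 and -0.03 under the control plasmid and between -0.21 and 0.01 under the TIF4631 label.

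**Figure D5:**
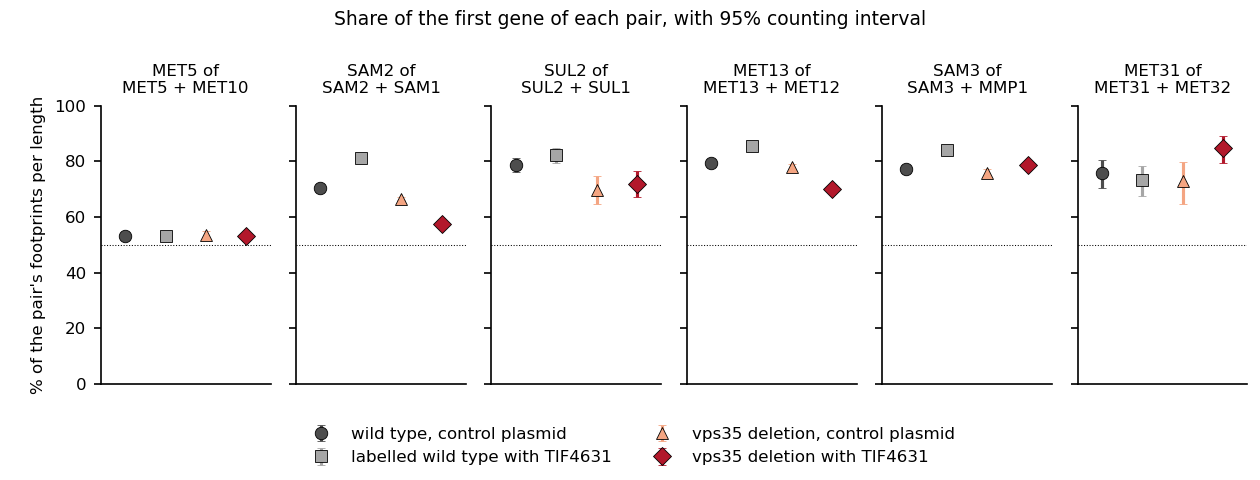
Share of the first gene in the footprints per length of a pair of subunits (MET5 and MET10) or of related enzymes, transporters and regulators, in percent, for each of the 4 libraries, with 95% counting intervals (Clopper-Pearson). The MET5 share stays between 53.0% and 53.5%, while the SAM2 share runs from 57.4% to 81.1%.

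Methionine is formed by Met6, the cobalamin-independent methionine synthase, with methyl groups that methylenetetrahydrofolate reductase (MET12, MET13) supplies on polyglutamated folates, the product of Met7. MET6 (YER091C, chromosome V, 339864 to 342167) was among the most abundant of the 33, at 4523, 6155, 4349 and 2561 scaled CPM. It was highest in the library labelled wild-type TIF4631 and lowest in the deletion library with TIF4631, and the controls of the 2 strains were close, at -0.06 (-0.07 to -0.04). MET13 (YGL125W, chromosome VII, 272520 to 274322) was highest and lowest in the same libraries as MET6, at 325.8, 509.2, 328.1 and 192.4 scaled CPM, with a strain ratio of 0.01 (-0.05 to 0.07) under the control plasmid and -1.40 (-1.46 to -1.35) under the label. The related reductase MET12 stayed between 89.5 and 101.2 scaled CPM. MET13 made up 79.5% (78.6 to 80.4), 85.5% (84.9 to 86.2), 78% (76.9 to 79.2) and 70.2% (68.9 to 71.5) of the pair per length. MET7, at 79.4, 78.9, 89.2 and 87.8 scaled CPM, was the one gene with both deletion libraries above both wild-type libraries, at strain ratios of 0.17 (0.05 to 0.28) and 0.15 (0.05 to 0.26).

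Transsulfuration runs from homocysteine to cysteine by Cys4 and Cys3, and back by Str2 and Str3. CYS4, cystathionine beta-synthase and the most abundant of the 4 per length, held 1602, 1606, 1474 and 1110 scaled CPM. CYS3, cystathionine gamma-lyase, held 851.2, 742.7, 850.5 and 780.3, so its lowest value was in the library labelled wild-type TIF4631 and not in a deletion library. The reverse pair also differed from each other. STR3 (YGL184C, chromosome VII, 154615 to 156012), cystathionine beta-lyase, held 67.9, 75.6, 56.7 and 35.6 scaled CPM, with -1.09 (-1.23 to -0.95) under the TIF4631 label. STR2, cystathionine gamma-synthase, held 44.8, 56.0, 44.4 and 51.6, with -0.12 (-0.25 to 0.02), and its label ratios were above 0 in both strains, at 0.32 (0.18 to 0.46) and 0.22 (0.06 to 0.38).

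The SAM cycle held SAM2, the gene with the largest ratio of the 33 in any of these contrasts, 4.91-fold lower in deletion than in wild type under the TIF4631 label. SAM1 and SAM2 encode 2 SAM synthetases, SAH1 the hydrolase that clears S-adenosylhomocysteine, and MHT1 a homocysteine methyltransferase that uses S-methylmethionine. SAM2 (YDR502C, chromosome IV, 1453310 to 1454464) held 2111, 3846, 1791 and 782.6 scaled CPM. It was thus 1.82-fold higher in the library labelled wild-type TIF4631 than in the wild-type control, at 0.87 (0.85 to 0.88), and 2.29-fold lower in the deletion library with TIF4631 than in its control, at -1.19 (-1.23 to -1.16). Its control libraries differed little, at -0.24 (-0.26 to -0.21). SAM1 (YLR180W, chromosome XII, 515262 to 516410) held 880, 893.2, 897.8 and 578.5 scaled CPM, 3 close values and 1 lower one. The label ratio of SAM1 in the deletion strain was -0.63 (-0.67 to -0.59), and in wild type 0.02 (-0.01 to 0.05).

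SAM2 made up 70.5% (70.1 to 70.9), 81.1% (80.8 to 81.3), 66.5% (66.0 to 67.0) and 57.4% (56.7 to 58.0) of the SAM synthetase footprints per length, so none of the 4 intervals overlapped. The coding sequences of the 2 genes match at 83.5% of 1148 aligned bases. Only 64 of the 1128 windows of 28 bases in SAM2, 5.67%, also occur in SAM1, so a footprint of about that length can be shared over a small part of either gene. How reads with 2 matches were counted is not given in the sources used here. No other of the 33 genes kept shared a window of 28 bases with the coding sequence of another gene. SAH1, the highest of the 33 per length, held 4249, 4919, 4428 and 3092 scaled CPM. MHT1 held 34.2, 27.5, 31.9 and 16.4, and was lowest in the deletion library with TIF4631, where its label ratio was -0.96 (-1.20 to -0.73).

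Among the permeases, Mup1 is the high-affinity and Mup3 the low-affinity methionine carrier, Mmp1 takes up S-methylmethionine and Sam3 takes up SAM. MUP1, the most abundant, held 701.4, 727.6, 656.4 and 495.3 scaled CPM, with ratios of -0.10 (-0.14 to -0.05) and -0.55 (-0.59 to -0.51) for strain. SAM3 (YPL274W, chromosome XVI, 22938 to 24701) held 297.6, 380.4, 231.6 and 142.4 scaled CPM, in the same order of libraries as SAM2, with strain ratios of -0.36 (-0.43 to -0.29) and -1.42 (-1.49 to -1.35). MUP3 held 17.2, 19.6, 12 and 11.5 scaled CPM and MMP1 87.8, 71.1, 73.1 and 38.5, so the strains overlapped for MMP1 and not for MUP3. All 4 permease genes were below 0 beyond counting error in both strain contrasts, against 17.3% of all ORFs under the control plasmid and 35.3% under the TIF4631 label.

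MMP1 and MHT1, which take up and then use S-methylmethionine and which are read outward from one shared upstream region, had close ratios in each contrast. For strain they were -0.27 (-0.39 to -0.14) and -0.10 (-0.29 to 0.09) under the control plasmid, and -0.88 (-1.02 to -0.74) and -0.75 (-0.97 to -0.53) under the TIF4631 label. For the label they were -0.31 (-0.41 to -0.20) and -0.31 (-0.49 to -0.14) in wild type, and -0.92 (-1.07 to -0.77) and -0.96 (-1.20 to -0.73) in the deletion strain. The intervals of the 2 genes overlapped in each of these 4 contrasts. The MMP1 relative SAM3 differed from MMP1 in wild type, where its label ratio was 0.35 (0.30 to 0.41).

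Of the 6 regulators, MET28 was lower by fold under the TIF4631 label, against 2.4% of all ORFs, and in the difference of label ratios, against 1.78%. CBF1, the helix-loop-helix protein that also acts at centromeres, held 84.0, 94.0, 97.0 and 77.3 scaled CPM, and the activator MET4 75.0, 84.3, 77.0 and 70.4. MET30, the F-box subunit of the ligase that ubiquitylates Met4, held 33.9, 38.8, 32.5 and 27.2. MET28 (YIR017C, chromosome IX, 383556 to 384119) held 19.8, 26, 17.6 and 10.9 scaled CPM, in the same order of libraries as SAM2, with -1.25 (-1.51 to -1) for strain under the TIF4631 label.

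The related zinc-finger proteins Met31 and Met32 recognise the same core. MET31 held 11.6, 10.8, 8.71 and 11.4 scaled CPM and MET32 4.03, 4.28, 3.52 and 2.22, from only 71, 75, 40 and 37 counts. MET31 made up 75.7% (70.3 to 80.6), 73.3% (67.6 to 78.4) and 72.8% (64.7 to 79.9) of the pair per length in the first 3 libraries, and 84.7% (79.5 to 89.0) in the deletion library with TIF4631. That last interval lies above the second and meets the first and the third at their upper ends, and the difference was not tested.

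A wider list of sulfur genes had medians near 0 in the strain contrasts. Of its 36 genes for other sulfur sources, homoserine, glutathione, thioredoxin, polyamines, SAM use and the Met30 ligase, 34 passed the filter. Their medians were -0.03 and -0.01 in the strain contrasts under the control plasmid and the TIF4631 label, and 14 of 34 were lowest in the deletion library with TIF4631, against 36.9% of all ORFs. By step, medians under the TIF4631 label ran from -0.55 for the 4 genes of SAM use to 0.12 for the 8 of polyamines and methionine salvage. The 4 genes of SAM use, ADO1, CHO2, OPI3 and ERG6, were all lowest in the deletion library with TIF4631. By fold, 1 of 34 was lower under the control plasmid, against 0.54% of all ORFs, and 2 of 34 under the TIF4631 label, against 2.4%. YCT1 (YLL055W), which encodes a cysteine transporter, held 10.2, 15.2, 4.31 and 4.86 scaled CPM, from 180, 266, 49 and 81 counts, and was lower in the deletion libraries by -1.24 (-1.73 to -0.78) and -1.64 (-2.02 to -1.28). In the additive model it fell with strain, at -1.46 (SE 0.254, adjusted p = 0.0496 in edgeR), just under the threshold. OPI3 (YJR073C), a phospholipid methyltransferase that consumes SAM, held 930, 1319, 769.4 and 385.6 scaled CPM, in the order of libraries seen for SAM2, and was lower under the TIF4631 label at -1.77 (-1.81 to -1.73). The first glutathione enzyme gene GSH1 held 106.4, 130, 108.3 and 70.8 scaled CPM, and the ligase partners SKP1, CDC53 and CDC34 lay between -0.05 and 0.09 in both strain contrasts.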

How the data were processed

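Ribosome-protected fragments of 4 yeast libraries, 1 per group, were analysed from the deposited tables. The deposited counts are whole numbers of total reads per ORF, and the deposited RPKM is scaled by the authors for gene length and library depth, as the headers state. The submitters' processing notes name the build sacCer3 and the tools Bowtie2, cutadapt 1.3 and CASAVA. Which tool counted reads is not given in the sources used here. For the genes described, counts divided by RPKM gave back a length 15 nt below the annotated gene.

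ORFs with at least 200 summed counts were kept, which removed 444. TMM factors of edgeR 4.0.16 were 0.997, 0.971, 1.01 and 1.02. Log2 ratios used scaled counts with 0.5 added, with 95% conditional binomial intervals (Clopper-Pearson). The difference of 2 ratios had a normal interval on log counts. The edgeR quasi-likelihood fit used Benjamini-Hochberg adjustment over all 4997 ORFs and estimated a coefficient of variation of 15.7%. Alternatives came from limma 3.58.1 and DESeq2 1.42.0 under R 4.3.3, and other scalings, filters and added counts were tried. The scripts were tested on simulated data. Amplified reads that carry no molecular identifier can repeat a molecule, so intervals and floors cover counting error only. Nothing in the labels gives separate cultures. The residual spread behind the p-values holds any difference between the label ratios of the 2 strains and is not a spread between replicates.

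The genes and lists were chosen with earlier results of these data known. Values in every library are given for genes past the fold threshold or an adjusted p of 0.05, for MET17 and for the highest gene per length of each step. Promoters were read from the R64 FASTA at annotated gene starts. The planned methionine and cysteine content of the proteins was not analysed here. Tables and figures were made with pandas 2.3.3, matplotlib 3.10.9, scipy 1.17.1 and numpy 2.4.6 under Python 3.11.15.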

Additional observations from a re-analysis of the deposited data

Results flagged for a closer look

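The TIF4631-label ratio had opposite signs in the 2 strains for 5 genes, each beyond counting error in both strains, with a log2 difference (deletion minus wild type) of at least 1 in size. These are 5 of 33 sulfur genes, all with the lower ratio in the deletion strain, a pattern that 1.42% of all ORFs had. With 1 library per group these differences were not tested, and TIF4631 was raised only in the deletion library. SAM2 had a difference of -2.06 (-2.10 to -2.02), from 0.87 in wild type and -1.19 in the deletion strain. MET13 had -1.41 (-1.50 to -1.33), from 0.64 and -0.77, and MET6 -1.21 (-1.23 to -1.19), from 0.44 and -0.76. The regulator MET28 had -1.08 (-1.43 to -0.73), from 0.39 and -0.69, and the SAM permease SAM3 -1.06 (-1.15 to -0.96), from 0.35 and -0.70.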

How the results depend on the processing

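In the 5 contrasts, the medians of the sulfur genes moved by less than the counting interval of a typical one of them, and the counts past the fold threshold within 1.5 times, under 3 other scalings, no filter, a filter of 1000 counts and 5 added counts. The counts of genes by order of libraries also stayed within 1.5 times, with 18 genes of 33 lower in both deletion libraries under total count scaling and 24 without the library labelled wild-type TIF4631. The filter of 1000 counts left 28 of the 33 genes, so its counts are over fewer genes. No called ratio of a sulfur gene changed sign.

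The additive model moved more. SUL2 kept an adjusted p between 0.000352 and 0.0158 in each setting tried. Sulfur genes that fell with strain numbered 2 by DESeq2, 2 with total counts and 3 with no filter, which added SAM3, MET2, and MET2 with MET16 in that order. Over all ORFs, 36 fell and 30 rose by DESeq2, 41 and 42 with total counts and 52 and 42 with no filter, and 19 rose with DESeq2 size factors and 23 without the 50 most abundant ORFs. For the plasmid label, DESeq2 called 1 that fell and 5 that rose, with 2325 adjusted p-values not given, no filter gave 1 and 3, and the other scalings and the filter of 1000 counts gave 1 and 1 each. The cause was not tested. The 500-base window, chosen after seeing the data, held CACGTG in 22 genes, CTGTGG in 21, both in 11 and either in 32, and is wider by construction. The window planned first, from 250 bases before to 50 after the start, held them in 10, 9, 3 and 16 genes. None of these counts stayed within 1.5 times. No paired analysis was possible because each group has 1 library and the labels give no replicate numbers. Low counts widen the intervals of SUL1, MET31, MET32 and YCT1.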

Other observations

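Genes outside the list that hold both cores in the 500 bases before their start were also measured. The 38 such ORFs kept had median log2 ratios of -0.05 under the control plasmid and -0.18 under the TIF4631 label for deletion against wild type, with 3 of 38 lower by fold in the second, against 2.4% of all ORFs and 78 of 4045 ORFs outside the list with neither core. The 10 sulfur genes with both cores had medians of -0.22 and -0.94, and the 10 with CTGTGG alone had -0.10 and -0.69. The 11 with CACGTG alone had -0.04 and -0.67. MET7 and MET31, the 2 kept genes with neither core in the 500 bases, stood at 0.15 and 0.07 under the TIF4631 label. Under the TIF4631 label, 4 of 10 sulfur genes with both cores, 3 of 11 with CACGTG alone and 3 of 10 with CTGTGG alone were lower by fold. No test of these differences was run. The classes rest on the 500-base window, which was chosen after seeing the data. In the shorter window, from 250 bases before to 50 after the start, the classes differ. There SUL2, MET1, MET2, MET6, STR3, SAM2 and SAM3, all lower by fold under the TIF4631 label, held neither core. MET13, MET16 and MET28, also lower by fold, held at least 1 match there. Among the 38, IES5, GTO1, CHL4 and YAP5 are read away from MET6, CYS4, MET32 and MET28, in that order, across gaps of 687, 674, 547 and 489 bases. Their windows overlap those of the sulfur genes, so the same matches can be counted for both. HOM3 and GSH1, also among the 38, are in the wider list of sulfur genes.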
